A study of Homo sapiens with 8 samples.

Results

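Solute carrier genes, which carry symbols beginning with SLC, were followed through a transcriptome map of N6-methyladenosine (m6A) in HCT116 cells, an established human colorectal carcinoma line. Members were taken by symbol alone: every listed peak whose gene symbol was SLC followed by a family number and a letter, or SLCO followed by a number. Of 347 peaks matching that pattern, 11 on antisense genes, 5 on pseudogenes and 2 on 1 further carrier gene were left out. This gave 329 peaks on 187 genes, of 22626 peaks on 12009 genes in all. The 187 genes came from 44 families, and 5 of them, with 6 peaks, were named for a carrier gene without being carriers themselves.

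The study compared cells with a stable knockdown of ALKBH5 by short hairpin RNA (shALKBH5) with cells carrying a control hairpin (shNC), all of HCT116 background, with no added drug named in the labels. Each arm had 2 libraries of RNA pulled down with an anti-m6A antibody (IP) and 2 libraries of the input RNA, 8 in all. The labels do not say that replicates came from separate cultures, or how many clones the knockdown lines represent, and their protocols name more than 1 antibody source, fragment size and sequencing instrument. The data analysed are the authors' deposited table of peaks, with no values per library, so neither the replicate spread, nor the depth, nor the level of ALKBH5 itself could be examined here.

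Solute carriers are membrane proteins that move amino acids, sugars, nucleotides, metals, vitamins and ions across the plasma membrane and the membranes of organelles. Growing tumour cells depend on them for nutrient uptake and for mitochondrial exchange. m6A is a methyl mark on adenosines of messenger RNA, often near the stop codon and in a sequence with a GGAC core, and ALKBH5 is an enzyme that removes it.

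For each peak the authors' deposited table gives a p-value of the peak itself, a fold enrichment read as IP over input, and a log2 fold between the arms, and the p and the false discovery rate (FDR) of that fold. A peak is called here where that FDR is under 0.05. Neither the table nor the labels state the numerator of the log2 fold, so its sign tells neither more nor less m6A in the knockdown. A fold of a peak can come from its m6A or from the level of its transcript, and these cannot be told apart here. Nothing states whether that p takes replicate spread into account. Positions are 1-based on GRCh38.

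Peaks on marker genes were used to look at the labelled cell type, although a peak is not a measure of expression. Of 9 colorectal epithelial markers 6 carried a peak, against 1 of 5 fibroblast and 0 of 5 leukocyte markers. CDX1, VIL1 and LGALS4 were the epithelial markers without one. Of the 13 epithelial marker peaks 7 were called between the arms (53.8%, against 8.23% of all peaks), 6 positive and 1 negative, and their part in the SLC results was not tested.

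The reference table of start regions reached 2 called SLC peaks, on SLC1A5 and SLC25A5, and 1 short stretch is shown for each because they bear on a shared and on an uncertain signal. The first lies just upstream of the SLC1A5 start, holds no base of the called SLC1A5 peak, and is covered by a peak on the opposite strand that overlaps it. The second opens the called peak of SLC25A5, a gene with near-identical copies. It was read from the start window of the antisense gene SLC25A5-AS1, and the peak's centre lies 1309 bases from the SLC25A5 5′ end. Both are printed from the plus strand, with a GGAC core in capitals, from the RefSeq table of GRCh38.p14.
SLC1A5 upstream, chr19:46788595-46788684: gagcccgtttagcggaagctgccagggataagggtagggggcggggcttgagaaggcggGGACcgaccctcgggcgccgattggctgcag
SLC25A5 peak start, chrX:119469341-119469370: cctatgtgGGACtcgccctaatgcctctga
GGAC was searched on both strands. It occurs 1 time in each stretch, on the strand shown, and 0 times on the other. The same letters occur on either strand in 47.8% of the equivalent 90-base stretches of 35116 start windows, and in 19.3% of the equivalent 30-base stretches. The 30-base stretches were placed relative to each start as in the SLC25A5-AS1 window. The first 50 transcribed bases of SLC1A5 hold no GGAC on either strand, against 33.5% of windows that do. These matches describe letters and do not locate a methylated base.

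Between the arms, 20 of the 329 SLC peaks were called (6.08%), against 8.23% of all peaks. They divided into 10 with a positive fold (3.04%, against 5.74% of all peaks) and 10 with a negative fold (3.04%, against 2.49%). The calls fell on 18 of 187 genes (9.63%, against 13.7% of all genes with a peak). The positive calls were on the zinc importers SLC39A10 and SLC39A14, the mitochondrial carriers SLC25A3, SLC25A5 and SLC25A37, and on SLC1A5, SLC38A2, SLC20A1, SLC2A3 and SLC35E1. The negative calls included both strongest SLC peaks, on SLC7A5, and peaks on SLC7A11, SLC1A5 and SLC35F6.

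Across the SLC peaks the log2 fold had a median of 0.01 (quartiles -0.57 and 0.73), against 0.14 (quartiles -0.52 and 0.79) over all peaks. A positive fold was listed for 50.8% of SLC peaks and 55.3% of all peaks. Since the median of all peaks was above 0, the folds were also recentred on it. Recentring gave 8 positive and 16 negative SLC calls, 24 in all (7.29%, against 7.77% of all peaks). Over all peaks it gave 934 positive and 825 negative calls, where the deposited folds gave 1298 and 564. The split of calls by sign therefore depends on where 0 is set, for SLC peaks and for all peaks. No test was made of the list, and the shares are descriptions.

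**Figure D1:**
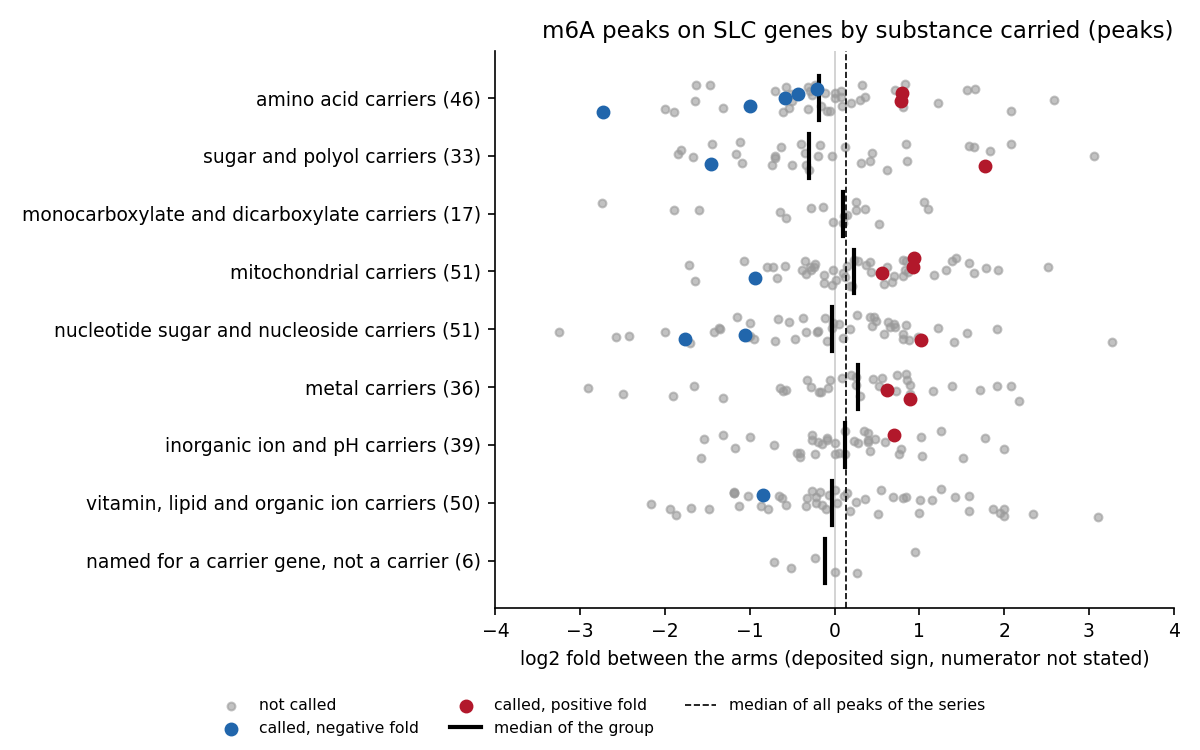
Log2 fold between the arms (deposited sign) of each of the 329 SLC peaks, in rows by role group, with the number of peaks in brackets. Groups of carriers follow the family number in the symbol, so a member may carry a substance other than its row names. Filled red and blue points are called peaks with a positive and a negative fold, grey points are not called, black bars are medians of the group and the dashed line is the median of all peaks (0.14); amino acid carriers hold 7 of the 20 calls.

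The amino acid carriers held the most calls, 7 of 46 peaks (15.2%, against 8.23% of all peaks). Of these, 2 were positive (4.35%, against 5.74%) and 5 negative (10.9%, against 2.49%). The calls fell on 5 of 25 genes, with 2 each on SLC7A5 and SLC1A5, and peaks of 1 gene are not independent. The median log2 fold of the group was -0.18, and 39.1% of its folds were positive. Shares called in the groups below stand against the same 8.23%. SLC7A5 encodes the transport subunit of LAT1, which exchanges large neutral amino acids and pairs with SLC3A2. Its 2 peaks nearest the 3′ end were the strongest of the SLC peaks, with a log10 p of -1730 and -1820 in the authors' deposited table. The peak at chr16:87830682-87831581 had a log2 fold of -0.43 and an FDR of 2.0e-17 in the authors' deposited table. The neighbouring peak at chr16:87832330-87832869 had -0.20 and 0.014 there. The remaining peak, near the 5′ end at chr16:87869207-87869477, was listed at -0.54 with an FDR of 0.12 in the authors' deposited table. All 3 SLC7A5 peaks were thus negative, and the 2 called ones had smaller folds than the uncalled one.

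SLC3A2, the glycoprotein subunit that LAT1 and the cystine exchanger share, had 3 peaks and no call. In the authors' deposited table its log2 folds were -0.70, 0.36 and -0.16 from the 5′ to the 3′ peak. The middle one, with an enrichment of 16.9, lay just outside the threshold at an FDR of 0.050 in the authors' deposited table. The outer 2 SLC3A2 peaks were thus negative like those of SLC7A5, and the middle one was positive. Recentring called the 3′ one, at -0.30, while requiring a peak p of 1e-05 called the middle one, at 0.36.

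SLC7A11 encodes the cystine and glutamate exchanger that feeds glutathione synthesis. Its called peak at chr4:138171794-138179353 covered 361 exonic bases in 2 blocks and had an enrichment of 19.1 in the authors' deposited table. Its log2 fold there was -2.73, the largest in size among the called SLC peaks, with an FDR of 0.030. The other SLC7A11 peak, at chr4:138242020-138242349, was listed at 0.30 with an FDR of 0.62 in the authors' deposited table. The call was lost when the authors' p was doubled and adjusted again, a setting in which 6.36% of all peaks were called.

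SLC1A5 encodes ASCT2, a sodium-dependent exchanger of glutamine and other neutral amino acids, and was the only SLC gene with called peaks of both signs. The peak at chr19:46787761-46788594, centred 416 bases from the annotated 5′ end, had a log2 fold of -0.58 and an FDR of 1.4e-06 in the authors' deposited table. The peak at chr19:46775329-46775745, centred 654 bases from the 3′ end, had 0.79 and 0.0049 there. Of the 186 genes with at least 2 called peaks in the whole series, 50 had called folds of both signs and 136 of 1 sign. The 5′ peak shares bases with 2 peaks of 1 unnamed gene model on the plus strand, listed at -0.61 and -0.60 in the authors' deposited table. Those peaks run past the SLC1A5 start into the upstream stretch printed above, and whether the reads belong to SLC1A5 or to the opposite strand was not tested.

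SLC38A2 and SLC38A10 belong to the family of sodium-coupled neutral amino acid carriers, of which SLC38A2 is known to rise when amino acids are scarce. The called SLC38A2 peak at chr12:46360677-46361157 had a log2 fold of 0.79 and an FDR of 0.0055 in the authors' deposited table. Its 5′ peak was listed at 0.72 and its 3′ peak at 0.00 in the authors' deposited table, neither called. The called SLC38A10 peak at chr17:81245650-81247148 had -0.99 and an FDR of 0.0048 in the authors' deposited table. The next peak toward the 3′ end of SLC38A10 was listed at 2.08 with an FDR of 0.089 there, and the one toward the 5′ end at -0.31. The SLC38A10 peaks thus spanned both signs, with 1 of 3 called. SLC38A1, a carrier of the same family, was listed at 1.66 and 0.07 in the authors' deposited table, and neither peak was called. SLC6A8, a creatine carrier gene grouped here by its family number, had 1 uncalled peak at -1.47 in the authors' deposited table.

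The SLC7 family was looked at after its values had been seen. Of 11 peaks on its 6 carrier genes 8 had a negative fold, 2 a positive fold and 1 a fold of 0, with a median of -0.29. Positive folds were thus 18.2% of SLC7 peaks, against 55.3% of all peaks. Every listed peak was negative in 3 of the 6 genes, namely SLC7A5, SLC7A6 and SLC7A8. Of these, SLC7A8 had only 1 peak, and 1 SLC7A6 peak shares bases with a peak of SLC7A6OS on the opposite strand. SLC7A6 and SLC7A8, amino acid exchangers related to SLC7A5, were listed at -1.64 and -0.26, and at -0.61, in the authors' deposited table, with no call. The cationic amino acid carrier SLC7A1 was listed at 0.20 and -0.29 there.

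Mitochondrial carriers of the SLC25 family exchange metabolites, nucleotides, phosphate and metals across the inner mitochondrial membrane. They held 4 calls of 51 peaks (7.84%), with 3 positive and 1 negative. Their median log2 fold was 0.23, and 62.7% were positive. SLC25A3 imports the phosphate used for ATP synthesis. Its single peak at chr12:98601232-98601767 had a log2 fold of 0.93 with an FDR of 1.6e-14 in the authors' deposited table. This was the lowest FDR among the positive SLC calls.

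SLC25A5 encodes the ADP/ATP carrier ANT2. Its single peak at chrX:119469341-119469887, whose first bases are printed above, had a log2 fold of 0.56, an FDR of 0.00039 and an enrichment of only 2.53 in the authors' deposited table. SLC25A6, which encodes the related carrier ANT3, had peaks listed at 0.23 and 0.01 with enrichments of 3.75 and 1.46 there, neither called. A peak on the SLC25A5 pseudogene SLC25A5P1 was listed at 0.83 with an FDR of 0.37 in the authors' deposited table. The SLC25A5 and SLC25A6 values are uncertain, since the copies are near-identical and no source used here says how shared reads were placed.

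SLC25A37, or mitoferrin-1, brings iron into mitochondria for haem and iron-sulfur cluster synthesis. Its called peak at chr8:23543191-23566956 had a log2 fold of 0.94, an FDR of 0.0011 and an enrichment of 31.5 in the authors' deposited table. The other 3 SLC25A37 peaks were listed at -1.07, 0.68 and -0.13 there and were not called. SLC25A39, needed for glutathione import into mitochondria, was the negative call, with -0.93 and an FDR of 0.042 at chr17:44319983-44320103 in the authors' deposited table. That SLC25A39 peak was weak, with an enrichment of 1.48 in the authors' deposited table, and the call was lost at an FDR of 0.01 and with p doubled; the settings with a minimum of strength leave the peak out by construction.

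The highest SLC enrichments were also on mitochondrial carriers. SLC25A51, the mitochondrial NAD+ carrier, reached 130 in the authors' deposited table, with a log2 fold of 1.32 and an FDR of 0.065. SLC25A36, a pyrimidine nucleotide carrier, reached 86.3 and SLC25A30 reached 62.7 in the authors' deposited table, at log2 folds of -0.35 and -0.12. SLC45A4 at 58.1 and the glucose transporter gene SLC2A12 at 57.9 came next in the authors' deposited table. None of these 5 peaks was called. At the other end, the lowest enrichments were 1.46 on SLC25A6, 1.48 on SLC25A39, 1.86 on SLC38A2, 2.0 on SLC35F6 and 2.06 on SLC27A4 in the authors' deposited table.

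**Figure D2:**
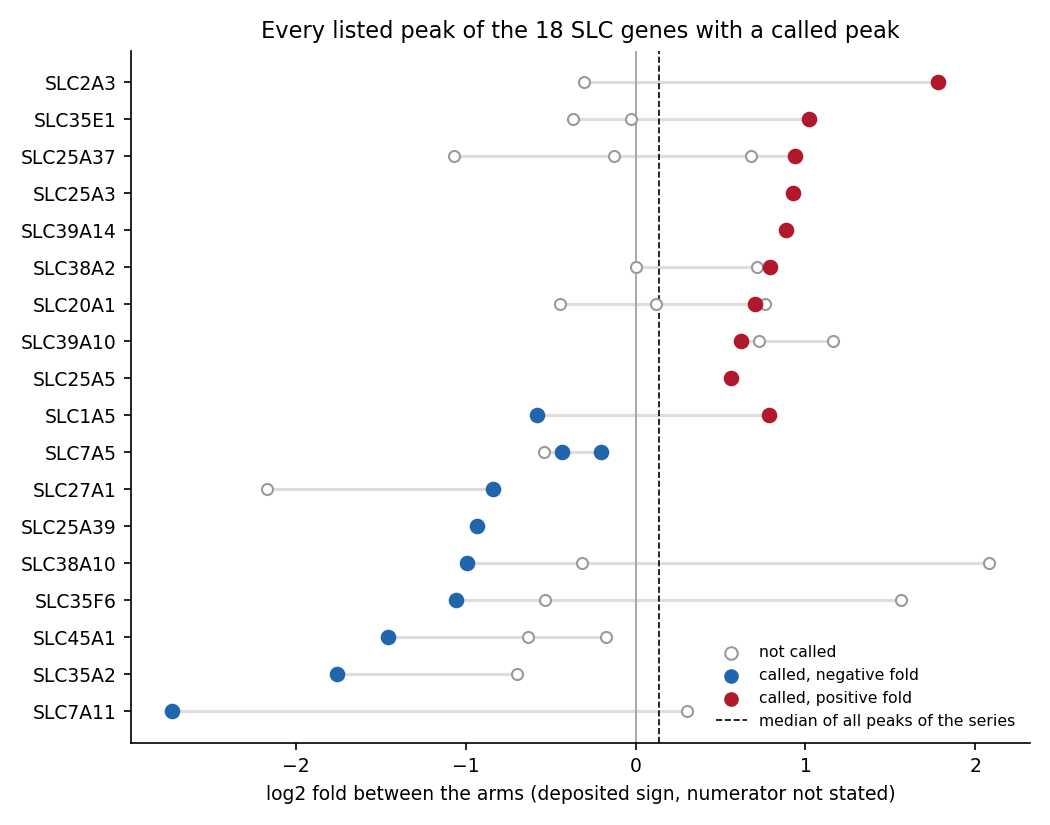
Log2 fold between the arms (deposited sign) of every listed peak of the 18 SLC genes with a call, 1 row per gene. Filled red and blue points are called peaks with a positive and a negative fold, open points are peaks not called; SLC1A5 has a called peak on each side of 0.

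Carriers of nucleotide sugars and nucleosides, mostly of the SLC35 family of the Golgi and endoplasmic reticulum, held 3 calls of 51 peaks (5.88%), 1 positive and 2 negative. Their median log2 fold was -0.03. SLC35A2 supplies UDP-galactose to the Golgi for glycosylation. Its called peak at chrX:48904917-48905097 had a log2 fold of -1.76 and an FDR of 0.0031 in the authors' deposited table, and its second peak was listed at -0.70. SLC35F6 had -1.06 with an FDR of 2.0e-07 at chr2:26778045-26778640 in the authors' deposited table, with an enrichment of 15.0. The 2 uncalled SLC35F6 peaks, nearer the 3′ end, were listed at 1.56 and -0.53 there. SLC35E1, a member with no firmly assigned substrate, had 1.02 with an FDR of 0.013 at chr19:16550826-16551276 in the authors' deposited table. Its stronger, overlapping upstream peaks were listed at -0.03 and -0.37 there. The GDP-fucose carrier gene SLC35C1 lay just outside the threshold, at -1.15 with an FDR of 0.051 in the authors' deposited table.

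Sugar and polyol carriers held 2 calls of 33 peaks (6.06%), 1 of each sign, and had the lowest median of the groups of carriers, -0.30. SLC2A3 encodes the high-affinity glucose transporter GLUT3. Its called peak at chr12:7921024-7921622 had a log2 fold of 1.78, the highest among the called SLC peaks, with an FDR of 0.047 in the authors' deposited table. The other SLC2A3 peak was listed at -0.30 there, uncalled. SLC45A1, a proton-coupled sugar carrier, had -1.46 with an FDR of 0.021 at chr1:8330431-8330909 in the authors' deposited table, and its other peaks were listed at -0.63 and -0.17. SLC5A3, the sodium-coupled myo-inositol carrier, had 3 uncalled peaks listed at -0.03, -1.44 and -0.39 in the authors' deposited table.

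Metal carriers held 2 calls of 36 peaks (5.56%), both positive, and had the highest median, 0.28. Recentring left 1 positive and 1 negative call, losing SLC39A10 and gaining SLC39A7, and doubling p left 1 call. SLC39A10 and SLC39A14 encode ZIP10 and ZIP14, which bring zinc, and for ZIP14 also iron and manganese, into the cytosol. The SLC39A14 peak at chr8:22417820-22420164 had a log2 fold of 0.89, an FDR of 0.00052 and an enrichment of 26.4 in the authors' deposited table. The called SLC39A10 peak at chr2:195671697-195683884 had 0.62 and an FDR of 0.046 there. Its 2 further peaks were listed at 0.73 and 1.16 in the authors' deposited table, neither called, so that all SLC39A10 peaks lay on the positive side. SLC39A6, or ZIP6, was listed at 0.86 and 0.84 there, with FDR values of 0.43 and 0.12. The zinc exporter gene SLC30A1 was listed at -0.27 in the authors' deposited table. Chosen after its values were seen, the SLC39 family had a positive fold at 13 of 16 peaks (81.2%, against 55.3% of all peaks), with a median of 0.68. Every listed peak was positive in 6 of its 9 genes, but SLC39A1, SLC39A8 and SLC39A14 among them had only 1 peak each. Of those 16 peaks 2 were called (12.5%, against 8.23% of all peaks), and 50% passed an unadjusted p of 0.05, against 19.9%.

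Inorganic ion and pH carriers held 1 call of 39 peaks (2.56%), with a median of 0.12. SLC20A1 encodes the sodium-coupled phosphate importer PiT1. Its called peak at chr2:112658848-112659743 had a log2 fold of 0.70 and an FDR of 0.0081 in the authors' deposited table. The next peak downstream in SLC20A1 was close to it, at 0.76 with an FDR of 0.062 there, while the first and last peaks were listed at -0.44 and 0.12. SLC12A2, the sodium, potassium and chloride cotransporter NKCC1, was listed at 0.28 and -1.17 in the authors' deposited table, with no call.

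Vitamin, lipid and organic ion carriers held 1 call of 50 peaks (2.0%), with a median of -0.03. SLC27A1 encodes the fatty acid transport protein FATP1. Its called peak at chr19:17501397-17504881 had a log2 fold of -0.84 and an FDR of 0.047 in the authors' deposited table, and its other peak was listed at -2.17 with an FDR of 0.65. The reduced folate carrier gene SLC19A1 was listed at -0.57, 1.01 and -1.02 in the authors' deposited table, from the 3′ to the 5′ peak, with no call. SLCO4A1, an organic anion transporter gene, was listed at -1.48, -0.17 and 2.0 there, also with no call.

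Monocarboxylate carriers, all of the SLC16 family, held no call among 17 peaks on 9 genes, and their median was 0.10. Just 1 SLC16 peak passed an unadjusted p of 0.05 in the authors' deposited table, and recentring also called 1. That peak was on SLC16A1, which encodes the lactate carrier MCT1 and was listed at -0.64 with an FDR of 0.079 in the authors' deposited table. Its other peaks were listed at 0.10 and 0.25, and SLC16A3, which encodes the lactate exporter MCT4, at -0.01 there.

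A list of 27 well-known carriers, described whatever their values, put these groups together. A peak was listed for 23 of them and a called peak for 10, where 13.7% of all genes with a peak had a call; the list was chosen with earlier results known, and nothing is read from this. SLC25A1, SLC26A3, SLC6A14 and SLC29A1 had no listed peak, which says nothing of their expression. A second list held 52 other symbols of carriers and partner proteins, of which 36 had a peak and 2 a call. Symbols were matched as written and synonyms were not merged, so these are counts of symbols and not of genes. BSG, or basigin, the chaperone that brings MCT1 and MCT4 to the membrane, had 0.83 with an FDR of 0.00033 at chr19:571575-575138 in the authors' deposited table. MFSD11, of the major facilitator superfamily, had -1.69 with an FDR of 0.013 at chr17:76736894-76737044 there. These 2 calls were 3.33% of the 60 peaks of that list, against 8.23% of all peaks, and the list's median was 0.07, against 0.14.

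**Figure D3:**
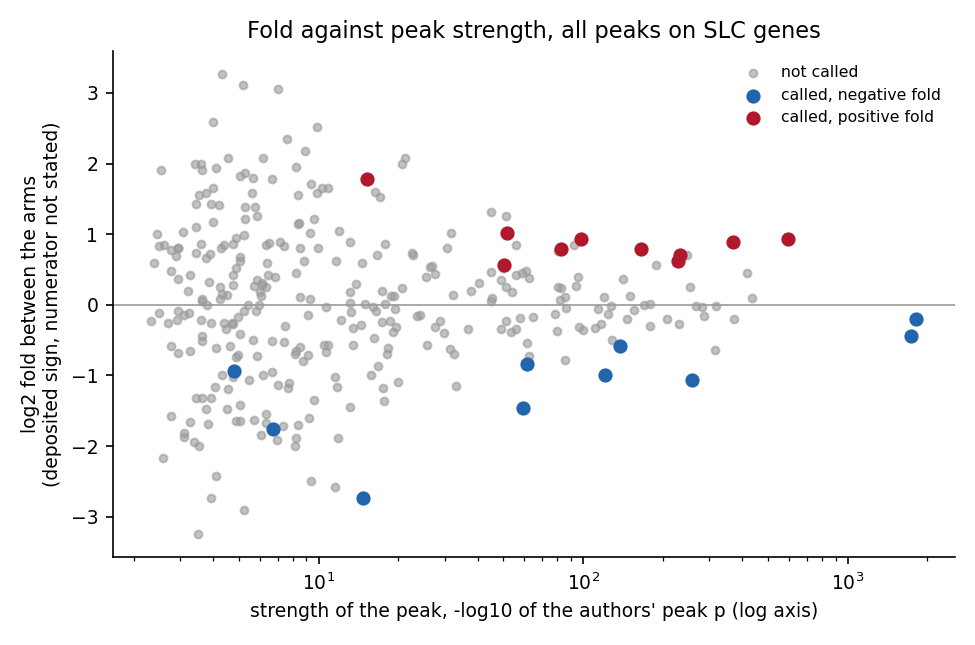
Log2 fold between the arms (deposited sign) against the strength of each of the 329 SLC peaks, as the size of the authors' log10 peak p on a log axis. Filled red and blue points are called peaks with a positive and a negative fold and grey points are not called; 16 of the 20 calls lie among the 72 peaks with a log10 p of -50 or smaller, while the widest folds lie among weaker peaks.

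Calls on SLC genes were mostly on strong peaks with small folds. Among the 72 SLC peaks with a log10 peak p of -50 or smaller, 16 were called (22.2%), against 23% of all peaks of that strength. Between -10 and -50, 2 of 80 SLC peaks were called (2.5%), against 11% of all such peaks. Of 84 SLC peaks between -5 and -10, 1 was called (1.19%, against 4.13%), and of the 93 weakest 1 (1.08%, against 1.28%). The SLC share was thus close to that of all peaks in the strongest and weakest classes and below it in the 2 between. The difference in these classes was not tested.

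Of the called SLC peaks, 14 of 20 (70%) had a log2 fold under 1 in size, against 43.2% of all called peaks. A fold of at least 2 in size was listed for 23 SLC peaks (6.99%, against 8.43% of all), of which 1 was called, on SLC7A11. Over all peaks 14.6% of folds that large were called. The most negative SLC fold was -3.25 on SLC29A4, a nucleoside and monoamine carrier gene, with an FDR of 0.26 in the authors' deposited table. SLC40A1, which encodes the iron exporter ferroportin, followed at -2.91 with an FDR of 0.56 there. The most positive was 3.27 on SLC35E2A, with an FDR of 0.20 in the authors' deposited table, and SLC35E2A has a near-identical copy, SLC35E2B, so the value is uncertain. That SLC35E2A peak also shares bases with a peak of an unnamed gene model, listed at 3.21 there.

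The threshold separated peaks of nearly equal values. Just inside it were SLC27A1 and SLC2A3 at an FDR of 0.047, SLC39A10 at 0.046 and SLC25A39 at 0.042 in the authors' deposited table. These 4, like SLC7A11, lost their call with p doubled, and SLC2A3 and SLC39A10 also when folds were recentred. Just outside were SLC3A2 at 0.050, SLC35C1 at 0.051 and SLC25A11, the mitochondrial oxoglutarate carrier gene, at 0.059 there. In all 14 SLC peaks had an FDR between 0.05 and 0.1. A stricter FDR of 0.01 kept 12 SLC calls (3.65%, against 4.95% of all peaks), and an unadjusted p of 0.05 gave 61 (18.5%, against 19.9%).

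**Figure D4:**
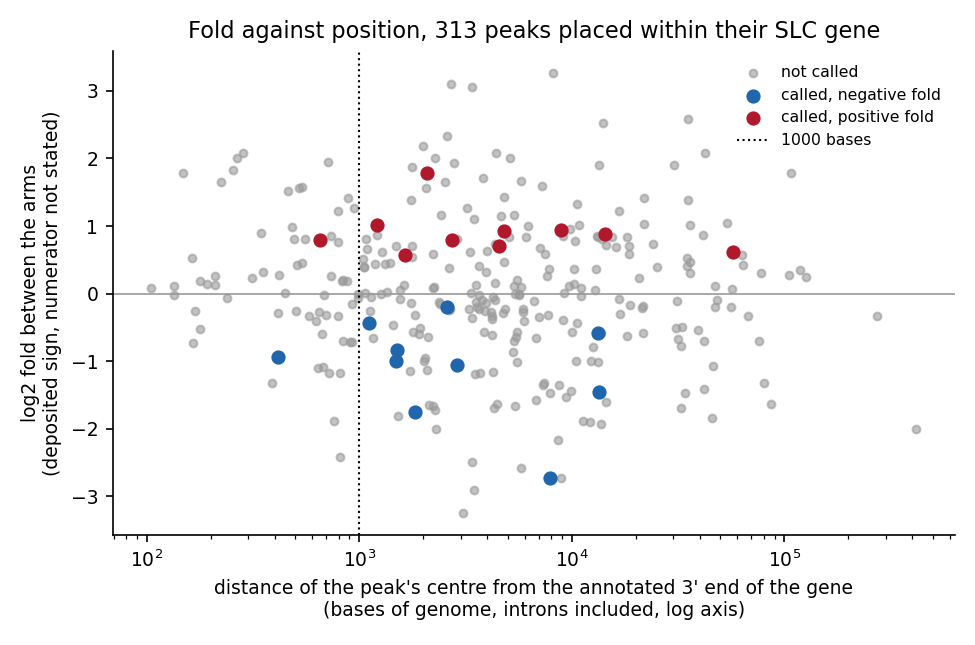
Log2 fold between the arms (deposited sign) against the distance of the peak's centre from the annotated 3′ end of its gene, in bases of genome with introns included, on a log axis, for the 313 SLC peaks placed within their gene. Filled red and blue points are called peaks with a positive and a negative fold, grey points are not called and the dotted line marks 1000 bases; 2 of the 20 calls, on SLC1A5 and SLC25A39, lie within it.

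Peaks on SLC genes resembled the other peaks of the table in enrichment, length and place. By log10 peak p, more of them were at -50 or smaller, 21.9% against 16.3% of all peaks. Between -10 and -50 lay 24.3%, against 28.2%, and between -5 and -10 25.5%, against 23.4%. The weakest class held 28.3%, against 32.1%. The median enrichment was 10.4 (quartiles 5.77 and 17.4), against 10.1 (4.96 and 16.3) over all peaks. The median exonic length was 331 bases, against 300. Peaks in several exon blocks made up 25.8% of SLC peaks and 30.4% of all. Within 1000 bases of the annotated 3′ end lay 64 of 313 placed SLC peaks, 20.4% (exact 95% binomial interval 16.1 to 25.3), against 21.6% of 20168 placed peaks in all. Within 1000 bases of the 5′ end lay 7.03% of SLC peaks and 8.36% of all. Among the called peaks the figure for the 3′ end was 2 of 20 (10.0%) for SLC genes and 32.8% for all genes. The interval covers counting error only, peaks of 1 gene are not independent, and distances in the genome include introns.

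**Figure D5:**
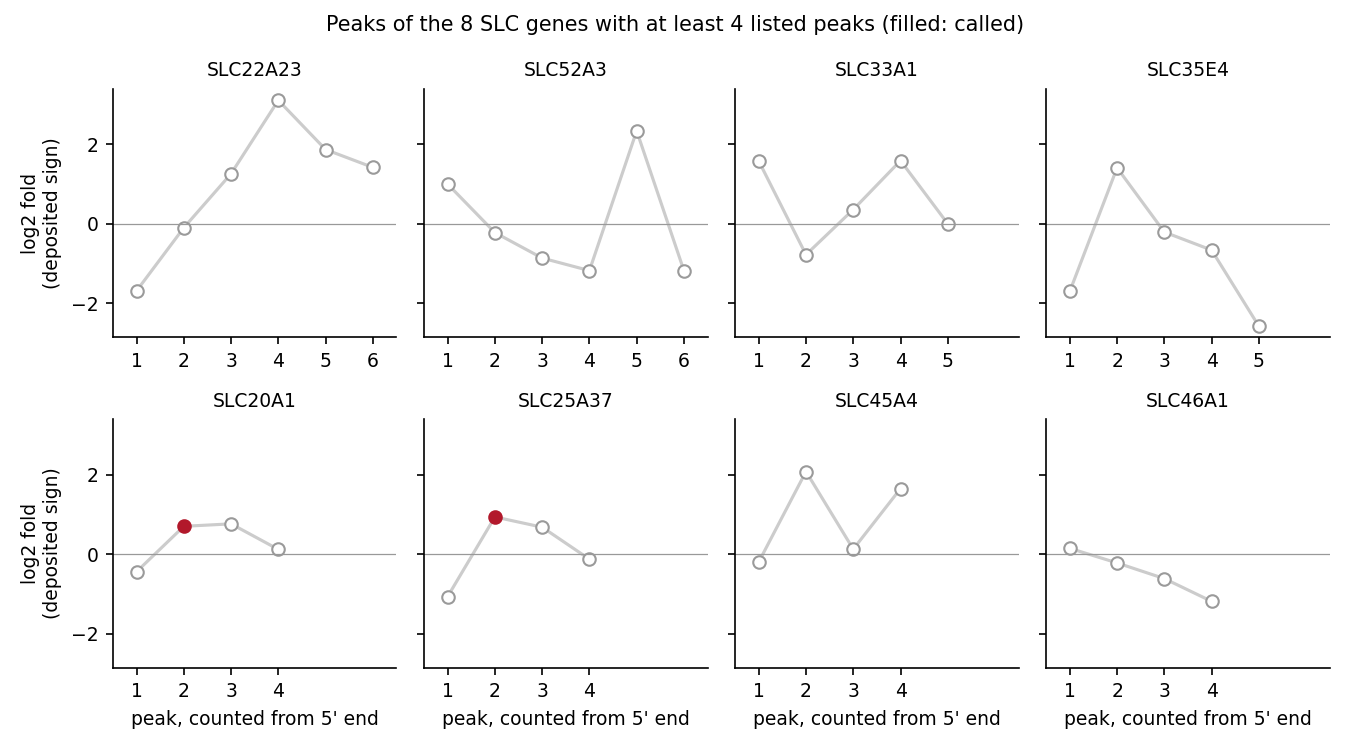
Log2 fold between the arms (deposited sign) of each peak, in order from the 5′ end, for the 8 SLC genes with at least 4 listed peaks. Filled points are called peaks, 1 each on SLC20A1 and SLC25A37, and open points are not called; in all 8 genes the folds lie on both sides of 0.

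A single gene often carried folds of both signs. Of the 187 SLC genes 97 had 1 peak (51.9%, against 51.6% of all genes), 52 had 2, 30 had 3 and 8 had 4 or more. Of the 90 genes with at least 2 peaks 55 had folds of both signs (61.1%, against 59.6% of 5812 genes). The median range of the log2 fold within those 90 genes was 1.38 (quartiles 0.66 and 2.07), against 1.33. Of the 18 genes with a call 13 had a further peak that was not called. Most of these peaks were not called. Of the 2 SLC genes with at least 2 called peaks, SLC7A5 had called folds of 1 sign and SLC1A5 of both, against 136 and 50 of the 186 such genes of the whole series.

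SLC22A23, an orphan member of the organic ion family, had 6 peaks and the widest range within an SLC gene, 4.80. From the 5′ end its log2 folds were -1.69, -0.10, 1.26, 3.11, 1.87 and 1.42 in the authors' deposited table, with a lowest FDR of 0.10. SLC52A3, the riboflavin carrier gene, also had 6, listed at 1.0, -0.22, -0.86, -1.18, 2.34 and -1.18 there. SLC33A1, whose product carries acetyl-CoA into the endoplasmic reticulum, had 5, listed at 1.58, -0.78, 0.36, 1.59 and 0.00 in the authors' deposited table. SLC35E4 had 5, at -1.70, 1.41, -0.21, -0.66 and -2.58 there. None of the peaks of these 4 genes was called. SLC46A1, the proton-coupled folate carrier gene, had 4, at 0.14, -0.22, -0.62 and -1.19 in the authors' deposited table, and SLC45A4 had 4, at -0.20, 2.08, 0.12 and 1.65. Some of these peaks share bases with peaks of other genes. Except for the 3′ one, SLC33A1 peaks overlap an unnamed gene model on the same strand, listed at 1.32, -0.79, 1.74 and 2.93. The SLC35E4 peaks at -0.66 and -2.58 overlap DUSP18 peaks at 0.46 and -1.28. All but the 5′ SLC46A1 peak overlap SARM1, and the SLC22A23 peaks at 1.87 and 1.42 overlap PSMG4. Which gene these folds belong to was not tested.

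Some SLC peaks share their bases with other listed peaks, mostly of other genes. At least 1 exonic base overlapped another listed peak for 49 of the 329, and for 34 of these the other peak was on the opposite strand. Overlaps were counted from each SLC peak, so a pair in which both are SLC peaks counts from each side. The 54 overlaps so counted had the same sign in 46 cases, and the log2 folds differed by a median of 0.18 and at most 2.24. Of the 37 overlaps on opposite strands 32 had the same sign. SLC19A1 and COL18A1, which overlap on opposite strands, were listed at 1.01 and 0.92 for 1 such pair in the authors' deposited table. No source used here says whether the counting used strand, so overlapping peaks may share reads, which was not tested. The 5′ peak of SLC1A5 was the only called SLC peak among the 49, and without the overlapping peaks 19 of 280 were called (6.79%). The matching share over all peaks without an overlap was not computed, so that share has no background here.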

How the data were processed

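Methylated RNA immunoprecipitation libraries (IP) and input libraries of 2 HCT116 arms were sequenced, 8 libraries in 4 groups of 2, grouped by their titles. BWA 0.7.12, HOMER 4.9.1 and GRCh38 appear, without a role, in the submitters' processing notes. No source used here names the peak caller. The deposited peak table covers the whole series. The authors' peak p-value is deposited as a score and as a log10 value, per the file headers. Enrichment is the authors' linear ratio, taken here as the IP signal relative to input, per the file headers. Between the arms there is a deposited log2 fold, whose p and FDR are stored as log10 values. Depth is unknown, and nothing states whether the p of the fold takes replicate spread into account. If it does, that is only the spread between these libraries, which may be technical.

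Peaks on SLC genes were selected by symbol, and peaks past a deposited FDR of 0.05 were counted beside all peaks, with Python 3.11.15, numpy 2.4.6, pandas 2.3.3 and scipy 1.17.1. Role groups follow the family number in the symbol. Members and lists were chosen with earlier results of these data known. Genes were named where they had a call or stood on the list of 27 carriers. Those among the 5 with the most peaks (all with 4 or more are given) were named too. So were those with the 5 highest or lowest enrichments, and called members of the list of 52 partner symbols. Others named were chosen after their values were seen. The values of 1 listed carrier are not reported here. All 329 peaks were matched by symbol or synonym to RefSeq genes (GRCh38.p14), and 313 lay within the gene.

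Alternatives were an FDR of 0.01, an unadjusted p of 0.05, the authors' p doubled and adjusted again, a peak p of 1e-05 or smaller, an enrichment of at least 2, overlapping peaks counted once, windows of 500 and 2000 bases, 1 peak per gene and folds recentred on the median of all peaks. For recentring, a standard error was recovered from fold and p, read as one-sided, where p was under 0.3 (11573 peaks); other peaks got no call, and p-values were adjusted again with the Benjamini-Hochberg method. Only the adjustment and the recentring were tried on simulated data, with p-values drawn in that same one-sided form. Deposited p-values of SLC peaks include 0.76, which that form cannot give. The simulation therefore does not show that recentring suits the deposited p.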

Additional observations from a re-analysis of the deposited data

How the results depend on the processing

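No paired analysis was possible because the deposited table holds no values per library, and for the same reason no replicate could be left out. At an FDR of 0.01, 12 SLC peaks on 11 genes were called, 5 of them negative, and the named SLC calls numbered 12. SLC25A39, SLC27A1, SLC2A3, SLC35E1, SLC39A10, SLC45A1, SLC7A11 and the second SLC7A5 peak were lost there. At an unadjusted p of 0.05, 61 SLC peaks on 48 genes passed, 34 positive and 27 negative. Recentring on the median of all peaks (0.14) gave 16 negative SLC calls, while negative calls over all peaks went from 564 to 825. It gained SLC16A1, SLC35C1, SLC39A7, SLC3A2, SLC9A3R2 and the 5′ SLC7A5 peak. It lost SLC2A3 and SLC39A10. With p doubled, 15 SLC calls were left, without SLC25A39, SLC27A1, SLC2A3, SLC39A10 and SLC7A11. Requiring a peak p of 1e-05 gave 24 SLC calls, 14 positive and 10 negative. That gained positive calls on SLC20A1, SLC25A11, SLC25A51 and SLC3A2 and a negative call on SLC35C1, and left out SLC25A39. Requiring an enrichment of at least 2 gave 17 SLC calls, 9 positive and 8 negative. SLC25A39, which lies under it, was lost, as were SLC2A3 and SLC27A1, which pass it but not the renewed adjustment. No share over all peaks was computed for these filters. Within 500 bases of the 3′ end lay 8.95% of SLC peaks (11.8% of all), and within 2000 bases 32.6% (35.5% of all). The causes were not tested. Depth is unknown, so what it limits cannot be stated.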

Other observations

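Zinc exporters of the SLC30 family, not described above beyond SLC30A1, spread to both sides of 0. SLC30A6 was listed at 1.71 with an FDR of 0.078 and at 2.18 with an FDR of 0.28 in the authors' deposited table, while SLC30A9 was listed at -1.91 and -0.06, with no call. Antisense genes named for carriers carried 11 peaks, none called. SLC16A1-AS1, which overlaps the 5′ peak of SLC16A1 on the opposite strand, was listed at -0.24 in the authors' deposited table, against 0.25 for SLC16A1.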
